A study of Mus musculus with 6 samples.

Results

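Chemokine ligands are the small secreted proteins that steer migrating cells, and their transcripts were followed here in thymus cell libraries of 2 genotypes. The members were all genes whose symbol is Ccl, Cxcl, Xcl or Cx3cl followed by a number and at most 1 letter. The rule found 39 genes of the 22298 in the tables. Of these 39, 31 had enough counts to be tested and 8 did not. A mean FPKM (fragment counts scaled by gene length and library depth) of at least 1 was reached by 28 members.

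Chemokines bind receptors with 7 membrane-spanning segments on the migrating cell. In the thymus, epithelial Ccl25 and Cxcl12 act through Ccr9 and Cxcr4 on progenitors and cortical thymocytes. Medullary Ccl19 and Ccl21, which signal through Ccr7, and Ccl17 and Ccl22, which signal through Ccr4, draw positively selected thymocytes towards the medulla. Cxcl9, Cxcl10 and Cxcl11 bind Cxcr3 and are induced by interferons.

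The comparison was of 3 Toxf/f control libraries with 3 Toxf/fCd4Cre libraries, all from untreated C57BL/6 mice. Both groups carry the floxed Tox alleles, and only the Cd4Cre group also carries Cre under Cd4 regulatory sequences. No group has Cd4Cre with an intact Tox gene, so Tox loss and Cre itself cannot be told apart. In each genotype replicate 1 was 4 weeks old, and the remaining 2 replicates were 3 weeks old. Whether each library is 1 mouse is not stated in the labels. The controls differed from one another in age or in Y-linked transcripts, so they hold different animals, whereas for Cd4Cre replicates 2 and 3 the spread may be technical. The titles name double-negative thymocytes and the protocols a sort of DN2 cells, which carry neither CD4 nor CD8. The transcripts went against a pure population of such cells: Cd8a reached 1712 CPM (counts scaled to library depth) in the controls and Kit, a DN2 marker, 20.4 CPM. Transcripts of epithelium were also present (Krt18 at 339 CPM), and most chemokine ligands are known as products of epithelial, stromal and myeloid cells. In such bulk libraries, fewer cells of a type and less RNA per cell cannot be told apart.

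Tox, the targeted gene, was at 109, 99.2 and 103 CPM in control libraries, against 12.5, 15.1 and 10.2 CPM in Cd4Cre ones. Libraries held 14550593 to 16099023 estimated counts. Control replicate 2 was the only library with Y-linked transcripts (3740 counts of 4 genes, against 2 to 5 in the others), so results are also given without it.

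Ligand transcripts differed strongly in level, and 3 genes made up most of the total. On the FPKM scale, which allows for gene length, Ccl25 reached 606, 631 and 554 in the controls and 670, 718 and 668 in Cd4Cre. Ccl21a followed in the controls with 281, 272 and 225, and in Cd4Cre had 176, 140 and 178. Cxcl12 stood at 94.0, 95.6 and 92.8 in the controls and at 123, 130 and 115 in Cd4Cre. In both genotypes the FPKM ranges of these 3 genes did not overlap one another. Ccl22 came next in the controls (59.4, 54.6 and 45.3 FPKM), but with 13.1, 11.8 and 10.1 FPKM in Cd4Cre it lay below every Cd4Cre value of Ccl5, Cxcl10 and Cxcl16. Ccl5 (29.3 to 38.2 FPKM) and Cxcl10 (30.0 to 32.5 FPKM) overlapped in the controls and did not differ beyond their spread. Further down, Cxcl16, Ccl21b, Ccl6, Ccl19 and Ccl8 had mean levels of 16.5 to 10.7 FPKM over all libraries.

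**Figure D1:**
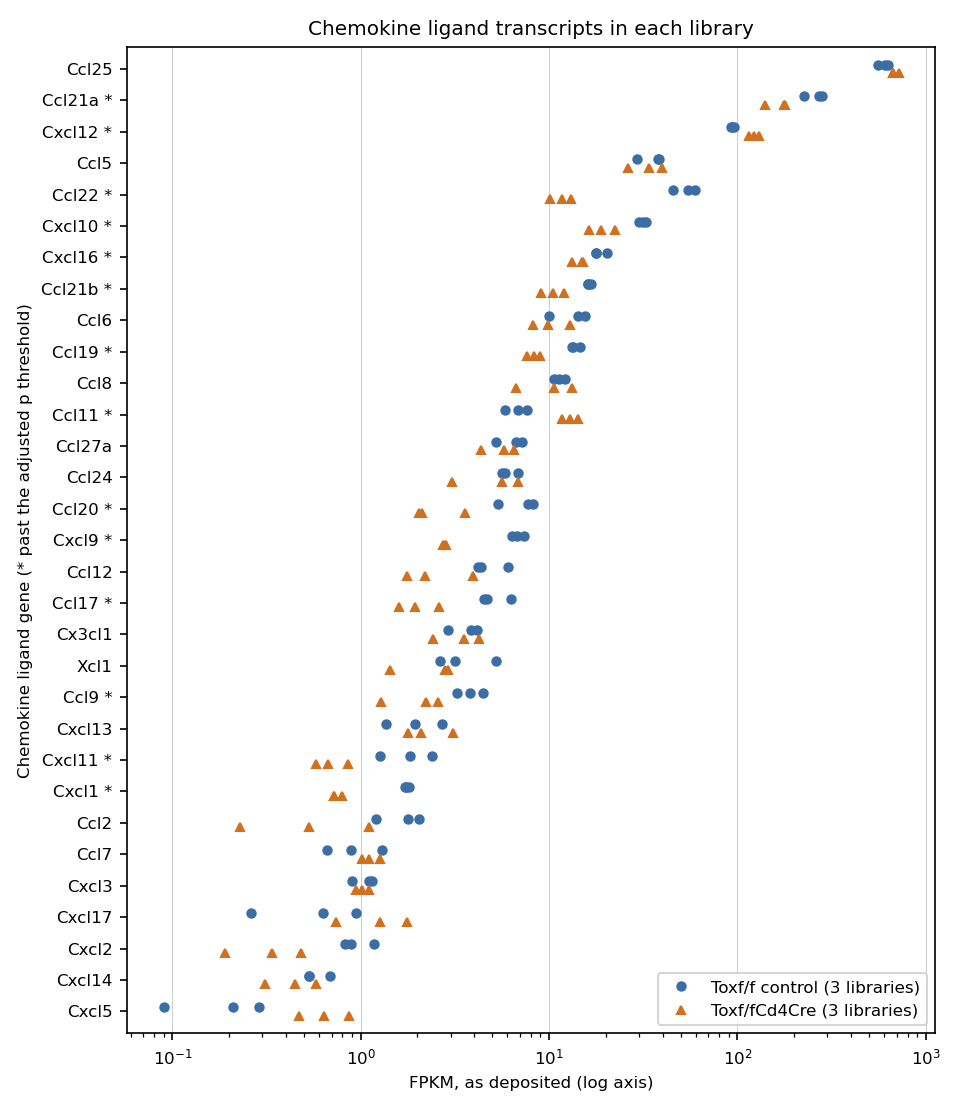
FPKM of each of the 31 tested ligands in each library, on a log axis, ordered by mean level (blue circles, 3 control libraries; orange triangles, 3 Cd4Cre libraries; asterisk, past the adjusted p threshold). Ccl25 lies highest, and the Ccl22 points of the genotypes are separated by the widest gap among the 6 most abundant ligands.

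The summed FPKM of the 39 ligands was similar in the genotypes, while its make-up was not. The sum was 1247, 1277 and 1112 in the controls and 1151, 1145 and 1137 in Cd4Cre, with overlapping ranges (two-sided exact permutation p = 0.4). Ccl25 took 48.6%, 49.4% and 49.8% of that sum in the controls and 58.2%, 62.7% and 58.7% in Cd4Cre, without overlap. Means were 49.3% ± 0.611 and 59.9% ± 2.47 (SD, n = 3), with an exact permutation p = 0.1, the smallest that 3 against 3 libraries can give. Without Ccl25, the summed FPKM was 615 ± 49.7 in the controls and 459 ± 28.5 in Cd4Cre (exact permutation p = 0.1, n = 3). The ratio of Ccl25 to Ccl21a, a cortical to a medullary ligand, was 2.16 to 2.46 in the controls and 3.75 to 5.12 in Cd4Cre. These ratios are of FPKM values, and the groups did not overlap (exact permutation p = 0.1). That outcome was fixed, because every Cd4Cre library had more Ccl25 and less Ccl21a than every control. The ratio is therefore not a separate result.

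**Figure D2:**
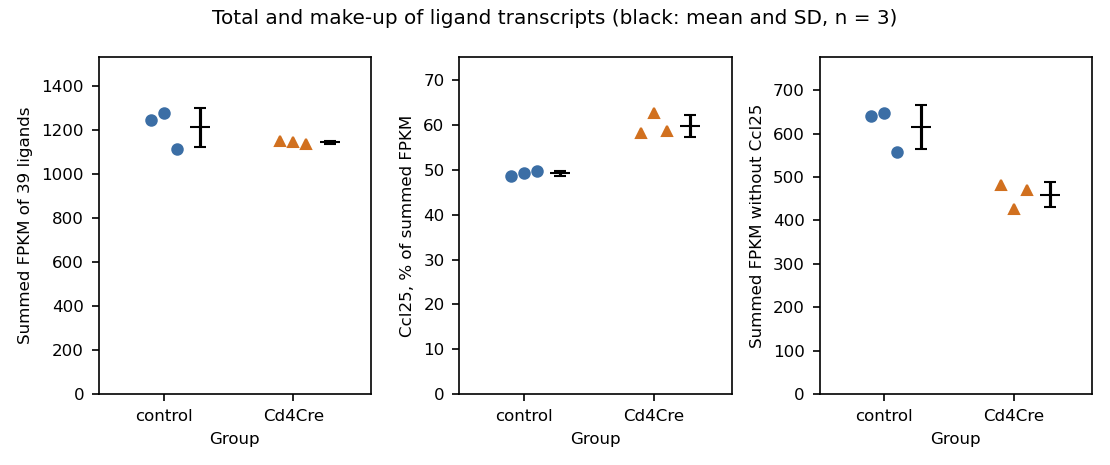
Summed FPKM of the 39 ligands, share of Ccl25 in it, and summed FPKM without Ccl25, for each library (points) with the mean and SD of each group (black, n = 3). The sums overlap between genotypes, whereas the Ccl25 share is 48.6% to 49.8% in controls and 58.2% to 62.7% in Cd4Cre.

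Of the 31 tested ligands, 14 passed the test for a genotype difference, 12 of them lower and 2 higher in Cd4Cre. The test was edgeR's quasi-likelihood test with Benjamini-Hochberg adjustment over 13934 genes and a threshold of 0.05, and every adjusted p below comes from it. Over all genes 4.11% passed, 2.96% lower and 1.15% higher. Among the ligands the shares were 45.2% called, 38.7% lower and 6.45% higher. The median log2 fold change of the tested ligands was -0.47, beside 0.01 for all genes tested, and 74.2% of ligands against 47.6% of genes had a negative value. Among lower calls, 6 ligands were at least 2-fold lower (Ccl22, Cxcl11, Ccl20, Ccl17, Cxcl9 and Cxcl1), a size and call that 1.17% of all genes met. The 14 called ligands all showed no overlap between the genotypes in CPM. Counting uncalled tested members too, 15 (48.4%) were lower and 4 (12.9%) higher without overlap, where 10.6% and 11.3% of all genes tested met those conditions. Because their groups did not overlap, the 14 called ligands necessarily had the same direction in the 3-week-old libraries and in the single 4-week-old pair. In the 3-week-old libraries alone only Ccl22 and Cxcl9 passed. Without control replicate 2, 7 of 33 tested ligands passed (1 higher, 6 lower), while the count over all genes fell from 572 to 298. Each of the 3 scalings tried gave 2 higher and 12 lower ligands.

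**Figure D3:**
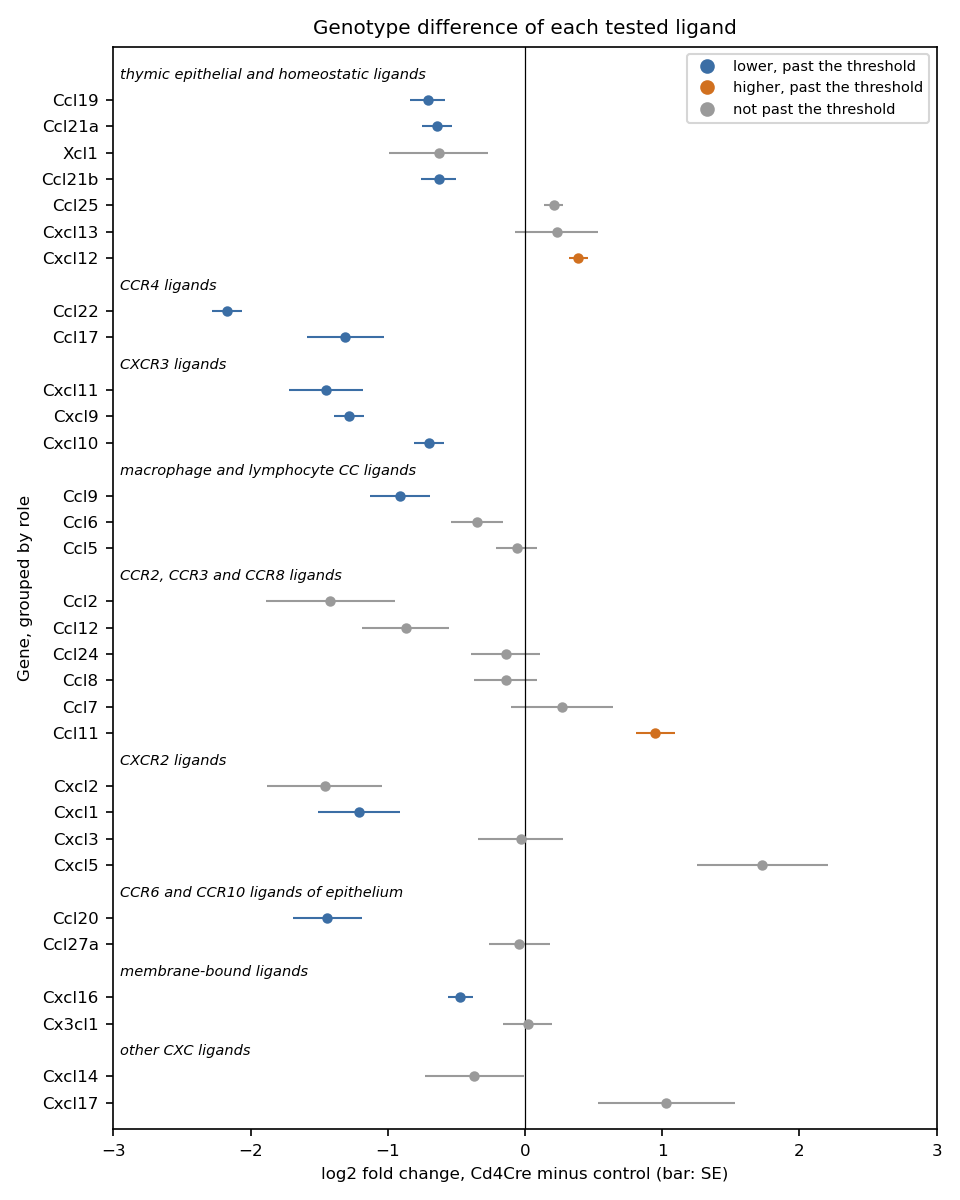
log2 fold change, Cd4Cre minus control, of the 31 tested ligands with its SE, grouped by role (blue, lower and past the threshold; orange, higher and past it; grey, not past). The 12 lower ligands span -2.17 to -0.47, and the 2 higher ones are Cxcl12 at 0.39 and Ccl11 at 0.95.

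Both Ccr4 ligands fell, and Ccl22 had the largest log2 fold change of the 31 tested ligands. Ccl22 (ENSMUSG00000031779), made by dendritic cells and medullary epithelium, had 130, 120 and 101 CPM in control libraries against 29.0, 26.2 and 22.6 CPM in Cd4Cre. Each Cd4Cre library was thus far below the lowest control. Its level of 117 ± 14.8 CPM fell to 25.9 ± 3.22 CPM (SD, n = 3), or 22.2% of the control level (log2 fold change -2.17, SE 0.11, adjusted p = 6.79e-07). Among all genes Ccl22 had the ninth smallest p, and it passed under each of the 16 alternative settings. Ccl17 (ENSMUSG00000031780), the other Ccr4 ligand, was much scarcer, with 2.38, 3.21 and 2.33 CPM in control libraries against 1.33, 0.997 and 0.835 CPM in Cd4Cre. Its groups did not overlap, and it fell to 40.3% of control (log2 fold change -1.31, SE 0.28, adjusted p = 0.0224). That call rests on 119 and 49 counts, and leaving out control replicate 1, control replicate 2 or Cd4Cre replicate 2 ended it (log2 fold changes of -1.51 to -1.15 over the 6 fits with 1 library left out). The FPKM ratio of Ccl22 to Ccl17 was 8.69 to 12.7 in the controls and 5.07 to 6.29 in Cd4Cre, without overlap (exact permutation p = 0.1, the smallest possible). Whether the fold changes of the 2 genes differ was not tested otherwise.

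Both genes lie on chromosome 8 with Cx3cl1 between them in the RefSeq gene order. Cx3cl1, which encodes the membrane-anchored ligand fractalkine, had 10.8 ± 1.56 CPM in the controls and 11.0 ± 2.54 CPM in Cd4Cre (SD, n = 3), with overlapping groups. Its log2 fold change of 0.02 (SE 0.18, adjusted p = 0.975) stood between neighbours at -2.17 and -1.31. The next gene beyond Ccl17, Ciapin1, had a log2 fold change of 0.13 (adjusted p = 0.564), and Pllp, beyond Ccl22, had too few counts to be tested. Sequences before the start sites of Ccl22 and Ccl17 are shown because these neighbours fell while the gene between them did not pass. They are the 250 bases before each start in RefSeq (build GRCm38.p6), and capitals mark matches to 3 motifs searched on both strands. The interferon-stimulated motif was GAAA and GAAA with any 2 bases between them, the kappaB motif was GGG and CC with any 5 bases between them, and the STAT motif was TTC and GAA with any 3 bases between them.

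Ccl22, chr8:94745434-94745683, plus strand: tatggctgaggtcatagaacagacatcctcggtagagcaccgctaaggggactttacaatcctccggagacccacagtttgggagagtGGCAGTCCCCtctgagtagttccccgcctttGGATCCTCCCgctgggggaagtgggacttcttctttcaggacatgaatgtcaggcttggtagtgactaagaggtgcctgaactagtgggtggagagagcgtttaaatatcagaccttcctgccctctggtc

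Ccl17, chr8:94810203-94810452, plus strand: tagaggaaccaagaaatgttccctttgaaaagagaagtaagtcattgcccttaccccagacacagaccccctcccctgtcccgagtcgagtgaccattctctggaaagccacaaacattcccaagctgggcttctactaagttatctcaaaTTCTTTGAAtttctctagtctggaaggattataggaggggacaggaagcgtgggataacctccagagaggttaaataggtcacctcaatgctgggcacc

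Ccl22 held 2 matches to the kappaB motif and Ccl17 held 1 match to the STAT motif, at position -99 from the start. A match to the kappaB motif is common, present in 53.5% of 27025 genes with a RefSeq window. The STAT motif was present in 9.55% of genes. Motif shares and counts over many genes, here and below, are for whole RefSeq windows, which run past the start. A gene counts if any of its windows matches. A match is a description and not a bound site.

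Markers of mature dendritic cells, a known source of Ccl22 and Ccl17, moved the same way in part. Of 10 such markers 5 were lower and 0 higher, and their summed level was 207 to 234 CPM in the controls and 133 to 152 CPM in Cd4Cre. Fscn1, an actin-bundling protein gene of these cells, fell from 75.7 ± 4.15 to 42.4 ± 7.79 CPM and Apol7c from 12.9 ± 1.2 to 4.37 ± 0.413 CPM (SD, n = 3). Cacnb3 (29.3 and 29.0 CPM) did not pass. In type 1 dendritic cells, 1 of 6 markers was higher (Naaa, joined by Clec9a without Cd4Cre replicate 3) and 0 were lower, and in type 2 dendritic cells 0 of 5 passed in edgeR or had an unadjusted p under 0.05. The part of dendritic cell number in the Ccl22 and Ccl17 differences was not tested. Marker lists, here and below, were chosen with earlier results of these data known, so their counts are a description. No gene on the marker lists given here had 0 counts in all 6 libraries.

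All 3 Cxcr3 ligands fell. Cxcl9 (ENSMUSG00000029417) had 18.3, 21.1 and 19.6 CPM in control libraries against 8.04, 7.92 and 8.35 CPM in Cd4Cre, a narrow spread in both groups with no overlap. It fell to 41.3% of control (log2 fold change -1.28, SE 0.11, adjusted p = 4.84e-05), and the call held under the 16 alternatives. Cxcl10 (ENSMUSG00000034855), the most abundant of the 3, had 35.2, 34.3 and 33.1 CPM against 20.6, 18.0 and 24.7 CPM, again without overlap. Its log2 fold change was -0.70 (SE 0.11, adjusted p = 0.00434), and of the 16 alternatives only the 3-week-old libraries alone ended its call (adjusted p = 0.15). Cxcl11 (ENSMUSG00000060183), which RefSeq lists as a transcribed pseudogene in the C57BL/6J reference, had 3.41, 4.99 and 3.26 CPM against 1.08, 1.43 and 1.74 CPM. The groups stood apart, and the log2 fold change was -1.45 (SE 0.27, adjusted p = 0.00913). Leaving out control replicate 2 or Cd4Cre replicate 1 ended the call of Cxcl11.

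Cxcl9 and Cxcl10 lie close together on chromosome 5, with Art3 between them in the RefSeq order of protein-coding genes. Art3 had a log2 fold change of -0.16 (adjusted p = 0.782). The outer neighbours in that order, Sdad1 (0.02) and Nup54 (0.00), did not pass either. Cxcl11, also on chromosome 5 and lower, is missing from that order because it is listed as a pseudogene. Its place beside these genes was not looked at. The sequences before the starts of Cxcl9 and Cxcl10 are given since both genes fell, with capitals as above.

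Cxcl9, chr5:92328080-92328329, minus strand: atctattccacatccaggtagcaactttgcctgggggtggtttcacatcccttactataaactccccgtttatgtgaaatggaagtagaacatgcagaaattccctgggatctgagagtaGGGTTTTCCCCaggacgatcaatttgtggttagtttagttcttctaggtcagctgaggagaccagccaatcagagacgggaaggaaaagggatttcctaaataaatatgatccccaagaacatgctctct

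Cxcl10, chr5:92348890-92349139, minus strand: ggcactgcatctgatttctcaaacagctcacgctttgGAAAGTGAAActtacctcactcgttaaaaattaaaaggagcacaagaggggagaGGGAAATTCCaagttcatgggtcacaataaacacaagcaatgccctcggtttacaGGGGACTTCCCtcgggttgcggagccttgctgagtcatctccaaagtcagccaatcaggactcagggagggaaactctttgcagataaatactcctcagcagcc

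Cxcl10 holds the interferon-stimulated motif at position -213, and 3.99% of genes hold it in a whole RefSeq window. Both also match the kappaB motif, Cxcl10 in 3 and Cxcl9 in 2 places, some of them overlapping by all but 1 base. Of the 28 ligands with a RefSeq window, the interferon-stimulated motif was found in 3 (Ccl19, Cxcl10 and Cxcl14), the kappaB motif in 15 and the STAT motif in 2 (Ccl17 and Cxcl14).

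Of 20 tested genes of the interferon-gamma response, 8 were lower and 0 higher, with summed levels of 2130 to 2261 CPM in the controls and 1932 to 2028 CPM in Cd4Cre. The calls numbered 3 without control replicate 1, and 5 without control replicate 2 or Cd4Cre replicate 1. Gbp5, a guanylate-binding protein gene, fell from 21.0 ± 2.03 to 11.5 ± 1.3 CPM and Gbp2 from 64.3 ± 3.32 to 44.9 ± 3.38 CPM (SD, n = 3). Irf1 (89.6 and 79.1 CPM) did not pass. Ifng itself had 0.177 CPM in the controls and 0.242 CPM in Cd4Cre, too low to be tested. The part of interferon signalling in the fall of the Cxcr3 ligands was not tested.

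Of the 2 ligands of cortical epithelium, Cxcl12 rose and Ccl25 did not pass. Cxcl12 (ENSMUSG00000061353), the Cxcr4 ligand of cortical epithelium and stroma, had 208, 212 and 211 CPM in control libraries against 274, 296 and 258 CPM in Cd4Cre. The controls were nearly identical and all Cd4Cre libraries lay above them (log2 fold change 0.39, SE 0.07, adjusted p = 0.00913), although leaving out control replicate 1 or 2 ended the call. Ccl25 (ENSMUSG00000023235), the most abundant ligand and the Ccr9 ligand of cortical epithelium, had 633, 662 and 589 CPM against 706, 761 and 716 CPM. Its groups did not overlap, but the log2 fold change of 0.21 (SE 0.07) did not pass (unadjusted p = 0.0135, adjusted p = 0.158). Of 9 markers of cortical epithelium, 6 were higher and 0 lower, and their summed level was 2113 to 2281 CPM in the controls and 2632 to 3054 CPM in Cd4Cre. Without control replicate 2, control replicate 3 or Cd4Cre replicate 1, 3 of the 6 calls were left (Krt18, Enpep and Psmb11). Psmb11, which encodes the thymoproteasome subunit, rose from 101 ± 2.98 to 141 ± 9.80 CPM and Enpep, a peptidase, from 28.1 ± 2.83 to 44.8 ± 3.38 CPM (SD, n = 3). Foxn1, the master factor of thymic epithelium, had 29.9 and 32.7 CPM and did not pass. The part of these cells in the rise of Cxcl12 was not tested.

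The Ccr7 ligands of the medulla fell together. Ccl21a (ENSMUSG00000094686), the main Ccr7 ligand of medullary epithelium, had 242, 235 and 198 CPM in control libraries against 152, 122 and 157 CPM in Cd4Cre. No Cd4Cre library reached the lowest control, and the level fell to 64.0% of control (log2 fold change -0.64, SE 0.11, adjusted p = 0.00457). This call held with any 1 library left out. Ccl19 (ENSMUSG00000071005) had 10.7, 9.77 and 10 CPM against 6.20, 5.73 and 6.75 CPM, also without overlap (log2 fold change -0.71, SE 0.13, adjusted p = 0.0105). Leaving out replicate 1 of either genotype ended that call. Ccl19 and Ccl21a are direct neighbours on chromosome 4 in the RefSeq order.

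Ccl21b (ENSMUSG00000095675) is a near copy of Ccl21a, and its value cannot be taken as independent of it. The coding sequences of the 2 genes in GENCODE M21 (build GRCm38, chromosome 4) differ at 2 of 402 bases, T84A and C194T, counted from the first base of the start codon with the Ccl21a base first. The stretch from base 54 to base 224 is shown, with the bases that differ in capitals, because coding reads away from these bases fit both genes. Untranslated parts of the 2 genes were not compared.

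Ccl21a: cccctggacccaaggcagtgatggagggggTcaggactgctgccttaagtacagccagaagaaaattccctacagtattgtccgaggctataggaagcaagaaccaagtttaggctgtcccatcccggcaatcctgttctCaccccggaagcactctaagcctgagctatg

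Ccl21b: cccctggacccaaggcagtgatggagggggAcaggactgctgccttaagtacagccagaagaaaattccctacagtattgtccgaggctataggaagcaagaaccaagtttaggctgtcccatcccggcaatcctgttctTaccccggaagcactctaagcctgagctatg

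Both genes carry fractional counts in the tables, as do Ccl21d, Ccl27a, Ccl27b and Cxcl16. Ccl21b had 13.9, 14.5 and 14.2 CPM against 9.05, 7.92 and 10.6 CPM, with a log2 fold change of -0.63 (SE 0.13, adjusted p = 0.0183), almost that of Ccl21a. Leaving out Cd4Cre replicate 1 or any single control ended its call. The FPKM ratio of Ccl21a to Ccl21b was 15.8 ± 1.78 in the controls and 15.7 ± 1.01 in Cd4Cre (SD, n = 3, exact permutation p = 1). Another gene, Gm10591, had exactly the counts of Ccl21b in all 6 libraries (216 and 143 in replicate 1 of the controls and of Cd4Cre, for example), so the Ccl21b value cannot be assigned to that gene alone.

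Markers of medullary epithelium did not move as a block beside these ligands. Of 10 markers 3 were lower (Fezf2, Tnfrsf11a and Krt14), 1 was higher (Krt5) and 6 did not pass, and their summed level was 179 to 229 CPM in the controls and 203 to 226 CPM in Cd4Cre. Each of these 4 calls was lost without control replicate 2, among others. Aire, the regulator of tissue antigen expression in the medulla, had 19.6 ± 3.99 and 13.4 ± 1.33 CPM (adjusted p = 0.0728). Of 12 genes of the TNF-family signals that act on medullary epithelium, 6 were lower and 0 higher. Without control replicate 1 or 2 only 2 of these calls were left (Cd40lg and Cd40), and without Cd4Cre replicate 1 there were 3. Cd40lg, the T cell ligand of Cd40, fell from 8.96 ± 0.824 to 2.37 ± 0.377 CPM and Cd40 from 18.6 ± 1.45 to 10.3 ± 1.32 CPM (SD, n = 3), whereas Tnfsf11 (RANKL) had 6.90 and 7.25 CPM and did not pass. The lists share genes: Cd40 is also counted as lower among the mature dendritic cell markers, and Tnfrsf11a among the medullary epithelium markers. The part of medullary cells in the fall of the Ccr7 ligands was not tested.

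Of the other homeostatic ligands, Xcl1, which attracts Xcr1-bearing dendritic cells and is made in the medulla, had 1.91 ± 0.701 and 1.24 ± 0.432 CPM (adjusted p = 0.434). Cxcl13, the Cxcr5 ligand that attracts B cells, had 2.29 ± 0.765 and 2.69 ± 0.820 CPM (adjusted p = 0.759). The groups overlapped for both genes. Ccl21d was listed with 0.02 counts in all controls together and 0.01 in Cd4Cre.

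Ccl20 (ENSMUSG00000026166), the ligand of Ccr6, had 6.50, 6.15 and 4.52 CPM in control libraries against 1.71, 1.75 and 2.92 CPM in Cd4Cre. The gap between the groups exceeded the spread within them, and the level fell to 37.0% of control (log2 fold change -1.44, SE 0.25, adjusted p = 0.00613). It remained past the threshold with any 1 library left out. Of the Ccr10 ligands of epithelium, Ccl27a did not pass (3.39 and 3.29 CPM), while Ccl27b (23.7 counts in the controls and 25.2 in Cd4Cre) and Ccl28 (21 and 35) were not tested. Ccl27a and Ccl27b carry fractional counts, so reads of these related genes may be shared.

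Cxcl16 (ENSMUSG00000018920), a membrane-bound ligand of Cxcr6 on dendritic cells and macrophages, had 38.6, 42.5 and 37.9 CPM in control libraries against 30.1, 29.7 and 26.0 CPM in Cd4Cre. The groups did not overlap, and the log2 fold change was -0.47 (SE 0.09, adjusted p = 0.0134). The call ended without control replicate 1 or 2 and in limma on log2 FPKM (adjusted p = 0.086 and 0.088 with pseudocounts of 0.1 and 1). Its counts are partly fractional, and its neighbour Zmynd15 had a log2 fold change of -0.51 (adjusted p = 0.319).

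Among inflammatory CC ligands, 1 rose and 1 fell. Ccl11 (ENSMUSG00000020676), the Ccr3 ligand eotaxin that fibroblasts produce, had 7.33, 8.19 and 6.32 CPM in control libraries against 15.4, 14.1 and 12.8 CPM in Cd4Cre. Every Cd4Cre library was well above every control (1.94-fold higher, log2 fold change 0.95, SE 0.14, adjusted p = 0.0019), and the call held with any 1 library left out. Of 7 fibroblast markers 0 passed in edgeR (3 had an unadjusted p under 0.05, Dcn passed without control replicate 1, and Pdgfrb and Lum passed without Cd4Cre replicate 3), with a summed level of 354 to 614 CPM in the controls and 360 to 377 CPM in Cd4Cre. Ccl11 sits in a row of 6 ligand genes on chromosome 11 in the RefSeq order: Ccl2, Ccl7, Ccl11, Ccl12, Ccl8 and Ccl1. Its neighbours Ccl7 and Ccl12 had log2 fold changes of 0.27 (adjusted p = 0.771) and -0.87 (adjusted p = 0.197). Ccl2, a Ccr2 ligand that recruits monocytes, had 1.36 ± 0.350 and 0.510 ± 0.363 CPM without overlap, but did not pass (log2 fold change -1.42, SE 0.47, adjusted p = 0.145). Both Ccl2 and Ccl12 passed without Cd4Cre replicate 3 (adjusted p = 0.027 and 0.029). Ccl8 (5.76 and 5.23 CPM) and Ccl24, another Ccr3 ligand (3.95 and 3.59 CPM), did not pass.

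A second row on chromosome 11 holds Ccl5, Ccl9, Ccl6, Ccl3 and Ccl4. Ccl9 (ENSMUSG00000019122), a macrophage product that binds Ccr1, had 9.65, 11.3 and 13.4 CPM against 6.65, 3.86 and 7.86 CPM. The groups were apart but each was spread widely, and the call (log2 fold change -0.91, SE 0.22, adjusted p = 0.0441) was lost in 5 of the 6 fits with 1 library left out, the exception being the one without Cd4Cre replicate 3. Ccl6, also of macrophages, had 19.0 ± 4.28 and 15 ± 3.61 CPM and did not pass (adjusted p = 0.409). Of 11 macrophage markers only Lyz2 was lower (338 ± 31 to 134 ± 16.7 CPM) and 0 were higher (Cd68 passed as well without Cd4Cre replicate 3), with a summed level of 892 to 948 CPM in the controls and 675 to 741 CPM in Cd4Cre. That macrophage sum includes Lyz2, and the median log2 fold change of the 11 markers was -0.08. Ccl5, a product of cytotoxic lymphocytes, had 19.8, 20.2 and 15.7 CPM against 21.1, 18.1 and 14.1 CPM. Its groups overlapped (log2 fold change -0.06, SE 0.15, adjusted p = 0.882). Beside it, 5 of 9 markers of gamma-delta T and NK cells were higher and 0 lower, with a summed level of 296 to 328 CPM in the controls and 457 to 543 CPM in Cd4Cre. Ccl3, Ccl4 and Ccl1 had 12, 22 and 16 counts in the controls and 29, 13 and 8 in Cd4Cre, and were not tested.

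The Cxcr2 ligands, which attract neutrophils, were near the limit of detection. Cxcl1 (ENSMUSG00000029380) had 1.61, 1.64 and 1.73 CPM against 0.759, 0.686 and 0.696 CPM, a tight and separate pair of groups resting on 75 and 33 counts. Its call (log2 fold change -1.21, SE 0.30, adjusted p = 0.0433) was lost in all 6 fits with 1 library left out (adjusted p of 0.059 to 0.16). Cxcl2 and Cxcl5 also did not overlap between the genotypes, the former lower (1.09 ± 0.183 and 0.384 ± 0.181 CPM) and the latter higher (0.308 ± 0.165 and 1.05 ± 0.323 CPM), but neither passed (adjusted p = 0.0918 and 0.077, SD, n = 3, edgeR). Cxcl2 passed in limma on log2 FPKM (adjusted p = 0.043 and 0.032 with pseudocounts of 0.1 and 1). Cxcl3 had 1.06 and 1.04 CPM. Of 6 neutrophil markers 0 passed in edgeR, and 0 had an unadjusted p under 0.05. Cxcl15 had 1 count in the controls and 3 in Cd4Cre, Ccl26 had 0 in both, and neither was tested. Cxcl14 (1.06 and 0.821 CPM) and Cxcl17 (0.462 and 0.955 CPM), CXC ligands of epithelium, did not pass.

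**Figure D4:**
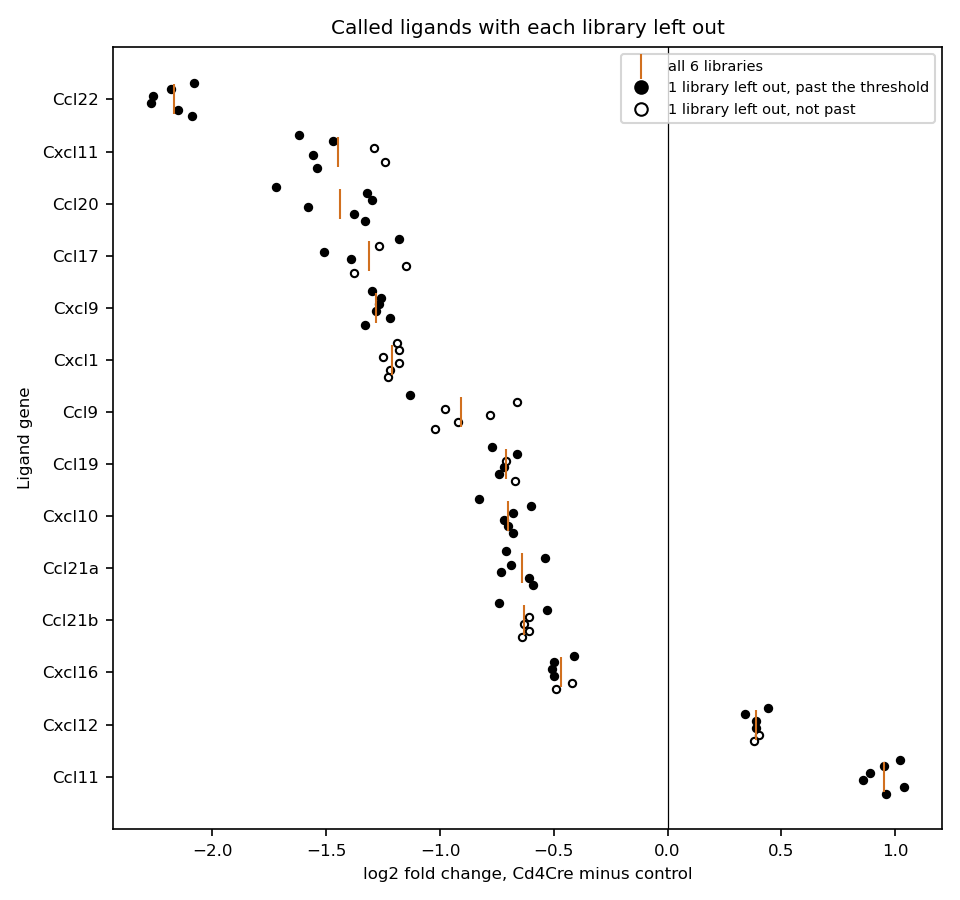
log2 fold change of the 14 called ligands with all 6 libraries (orange bar) and with each library left out in turn (circles; filled, adjusted p under 0.05; open, not). Ccl22, Cxcl9, Ccl20, Cxcl10, Ccl21a and Ccl11 stay past the threshold in all 6 fits, and Cxcl1 in none.

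The receptors complete the pathway. Of 23 chemokine receptor genes 21 were tested, of which 4 were lower, 3 higher and 14 did not pass. For 3 receptors the called ligands had the same direction. Ccr7, the receptor that leads thymocytes into the medulla, fell from 73.3 ± 8.48 to 29.1 ± 3.63 CPM, beside Ccl19 and Ccl21a. Ccr4 fell from 61.0 ± 2.86 to 33.1 ± 1.04 CPM, beside Ccl17 and Ccl22. Ccr6 fell from 4.81 ± 0.945 to 0.868 ± 0.167 CPM (SD, n = 3), beside Ccl20. For 2 other receptors receptor and ligands differed in direction. Cxcr3, the receptor of Cxcl9, Cxcl10 and Cxcl11, rose from 2.02 ± 0.441 to 4.32 ± 1.18 CPM (adjusted p = 0.0377), and Cxcr6, the receptor of Cxcl16, from 4.08 ± 0.777 to 9.85 ± 4.63 CPM (adjusted p = 0.0372). With 1 library left out, Cxcr3 was past the threshold in 1 of 6 fits (without Cd4Cre replicate 3) and Cxcr6 in 2 of 6 (without Cd4Cre replicate 2 or 3). Ccr2, at 6.81 ± 1.87 CPM in the controls, rose to 26.5 ± 9.82 CPM (SD, n = 3, log2 fold change 1.95, SE 0.27, adjusted p = 0.00142), while its ligands Ccl2, Ccl7 and Ccl12 did not pass. Cxcr5 fell from 5.15 ± 1.24 to 1.53 ± 0.209 CPM, and its ligand Cxcl13 did not pass.

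The receptors of the 2 main cortical ligands did not pass. Ccr9, the receptor of Ccl25, had 1229 ± 99.0 and 1233 ± 132 CPM (SD, n = 3), with a log2 fold change of 0.00 (SE 0.09). Cxcr4, the receptor of Cxcl12, had 326 ± 12 and 363 ± 17.8 CPM (log2 fold change 0.15, adjusted p = 0.308). Genes of mature T cells, which carry Ccr7, were lower in 6 of 8 cases, with a summed level of 578 to 638 CPM in the controls and 347 to 393 CPM in Cd4Cre. Ccr7 is itself 1 of those 8. Markers of gamma-delta T and NK cells went the other way, with 5 of 9 higher and 0 lower, as given above beside Ccl5. The part of cell make-up in the receptor differences was not tested.

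**Figure D5:**
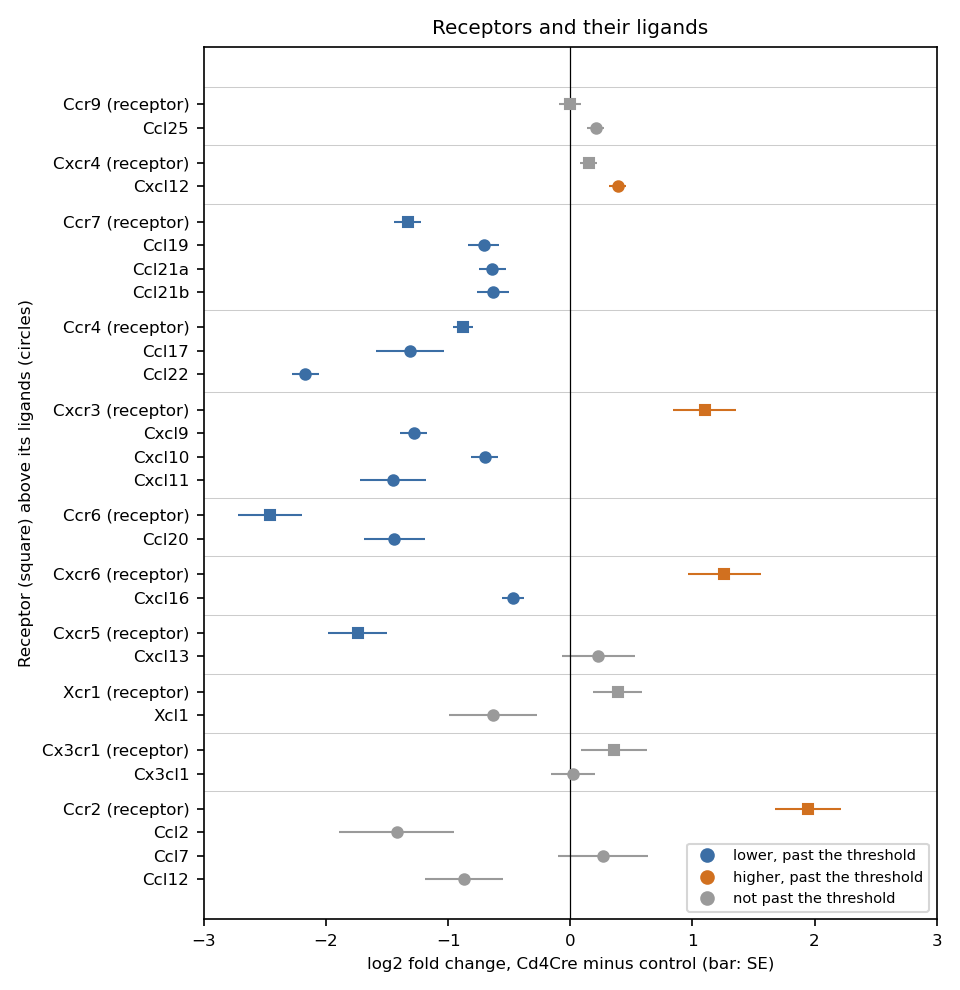
log2 fold change, Cd4Cre minus control, with its SE, of 11 receptors (squares) above their ligands (circles), coloured by the test (blue, lower; orange, higher; grey, not past). Ccr7, Ccr4 and Ccr6 are lower with their ligands, whereas Cxcr3 (1.1) and Cxcr6 (1.26) are higher and their ligands lower.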

How the data were processed

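RNA sequencing tables of 6 libraries (3 per genotype) were used. The authors deposited, per the file headers, estimated counts and FPKM values per gene. fastp 0.18.0, HISAT2 and StringTie 1.3.1 are named per the submitters' processing notes. The counting program, strand setting and genome build were not given in the sources used here, so overlapping and antisense genes may share reads. The estimated counts, of which 9.27% to 9.87% per library were not whole, were rounded. They were filtered with filterByExpr (minimum count 10, minimum total 15) and scaled by TMM. Cd4Cre minus control was tested with edgeR 4.0.16 in R 4.3.3 (quasi-likelihood, two-sided, Benjamini-Hochberg over 13934 genes, threshold 0.05), without a block. The scripts were tested on simulated data. SE derive from the F statistic. CPM are TMM-scaled. The deposited FPKM values served to compare levels between genes, and in limma 3.58.1 with pseudocounts of 0.1 and 1. DESeq2 1.42.0 was an alternative. Members, marker lists and roles were chosen with earlier results of these data known. Called members and the 6 most abundant are given library by library. Promoter windows and the order of protein-coding genes came from RefSeq (GRCm38.p6). Precision is limited by 3 libraries a group. Some genes of the lists are not reported here by name.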

Additional observations from a re-analysis of the deposited data

How the results depend on the processing

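The 14 ligand calls (572 over all genes, 7 receptors) fell to 2 ligands and 151 genes in the 3-week-old libraries alone, a fit with fewer samples. With 1 library left out, 7 to 15 ligands and 298 to 1269 genes passed, fewest ligands without control replicate 1 or 2 (7 each, of 309 and 298 genes), then 9 of 330 without Cd4Cre replicate 1, and most without Cd4Cre replicate 3. The other 9 alternatives gave 12 to 14 ligands, 406 to 674 genes and 5 to 7 receptors. All 14 called ligands kept their direction under the 16 alternatives, which adds little because their groups did not overlap. With the replicate block 12 ligands (Ccl17 and Cxcl1 lost), 440 genes and 6 receptors passed. Deviations of same-numbered libraries correlated at 0.08, -0.11 and -0.04, so the numbers were not taken to pair the libraries. Uncalled ligands near 0 turned sign: Cx3cl1 had -0.11 and -0.08 by limma on log2 FPKM. With 1 library left out Cx3cl1 ranged from -0.13 to 0.19, Ccl24 from -0.35 to 0.10, Ccl27a from -0.17 to 0.09, Ccl5 from -0.20 to 0.08, Ccl8 from -0.39 to 0.09, Cxcl13 from -0.03 to 0.49 and Cxcl3 from -0.14 to 0.03. The cause was not tested. Depth limits the 8 untested ligands and those under about 1 CPM.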

Other observations

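Pf4 and Ppbp are CXC chemokines of platelets whose symbols fall outside the naming rule, and they were looked at after the values of their neighbours had been seen. Pf4 had 2.77, 2.59 and 2.66 CPM in control libraries against 2.40, 1.87 and 1.95 CPM in Cd4Cre. The groups did not overlap, but the log2 fold change of -0.36 (SE 0.22) did not pass (edgeR quasi-likelihood adjusted p = 0.463). Ppbp had 10 counts in the controls and 16 in Cd4Cre and was not tested.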
